A study of Homo sapiens with 30 samples.

Results

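The zinc finger genes on the autosomes other than chromosome 19 comprised 255 protein-coding genes, taken as every gene on chromosomes 1-18 and 20-22 whose GENCODE symbol on hg19 begins with ZNF, out of 20163 protein-coding genes on chromosomes 1-22, X and Y. Each gene was taken with 2 kb on either side, and every called peak that overlapped this span was assigned to it. The remaining 17494 protein-coding genes on the same chromosomes and the 249 ZNF genes on chromosome 19 served for comparison. Of the 255 genes, 3 were readthrough entries that join a ZNF gene to a neighbour, and 82 overlapped another protein-coding gene, so that some peaks were counted for more than 1 gene.

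The genes were examined in ChIP-seq of 2 repressive histone marks in HEK293T cells, a human embryonic kidney line, 48 h after transfection of antisense oligonucleotides. H3K27me3 was profiled in cells given a negative control oligonucleotide (NC), in cells depleted of the long noncoding RNA LINC00641 (ΔLINC00641) and in cells depleted of SETD5-AS1 (ΔSETD5-AS1). H3K9me3 was profiled in NC and in cells depleted of LINC00662 (ΔLINC00662), and the question was whether the marks depended on these RNAs. The 30 libraries formed 10 groups of 3 replicates, 5 of them ChIP and 5 the matching inputs. All groups were the same line and all had received an oligonucleotide, and the file headers name a single oligonucleotide for LINC00641 and for SETD5-AS1 and a mix for LINC00662. The peaks were called on the 3 replicates of a group pooled, so each value below is 1 value per group with no replicate spread and no test, and the amount of the targeted RNA is not measured by these lists.

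Most ZNF genes encode proteins with tandem C2H2 zinc fingers that bind DNA. In many of them the fingers are all encoded by the last exon, and a KRAB box at the other end of the protein recruits TRIM28 and, through it, the H3K9 methyltransferase SETDB1. The finger exons of these genes are themselves a known site of H3K9me3, whereas H3K27me3 is laid down by Polycomb complexes, typically at CpG-rich promoters of developmental genes. Clusters of ZNF genes arose by repeated duplication, so neighbouring members often share long stretches of similar sequence.

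Finger exons repeat a short linker sequence, shown here in the context of 210 coding bases from 4 last coding exons that lay wholly under H3K9me3 NC peaks and held the summit of one. They were read from the GRCh37 assembly on the coding strand, at the summit or at the coding bases nearest to it, and the capitals mark the linker between consecutive fingers (ACNGGNGANAAN, where N is any base). The ZNF436 window lies at chr1:23688952-23689161 (minus strand), the ZNF32 window at chr10:44139526-44139735 (minus), the ZNF286A window at chr17:15620392-15620601 (plus) and the ZNF879 window at chr5:178460429-178460638 (plus).
ZNF436: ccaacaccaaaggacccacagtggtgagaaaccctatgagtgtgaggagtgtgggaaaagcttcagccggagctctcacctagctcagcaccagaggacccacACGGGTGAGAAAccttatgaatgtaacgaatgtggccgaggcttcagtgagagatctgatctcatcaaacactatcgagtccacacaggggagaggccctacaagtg
ZNF32: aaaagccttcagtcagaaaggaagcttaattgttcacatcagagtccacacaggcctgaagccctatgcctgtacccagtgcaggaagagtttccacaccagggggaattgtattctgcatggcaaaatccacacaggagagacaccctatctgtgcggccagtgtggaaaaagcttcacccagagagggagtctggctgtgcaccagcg
ZNF286A: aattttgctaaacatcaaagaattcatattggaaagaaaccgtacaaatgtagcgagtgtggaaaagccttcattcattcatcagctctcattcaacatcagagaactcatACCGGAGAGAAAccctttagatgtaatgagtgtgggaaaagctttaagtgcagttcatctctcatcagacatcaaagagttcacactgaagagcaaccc
ZNF879: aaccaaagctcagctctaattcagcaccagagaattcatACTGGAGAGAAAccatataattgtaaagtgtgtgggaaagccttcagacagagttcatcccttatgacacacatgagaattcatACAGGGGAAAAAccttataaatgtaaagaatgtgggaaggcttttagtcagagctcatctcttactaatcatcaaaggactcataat
The linker was found once in the ZNF436 and ZNF286A windows, 2 times in that of ZNF879 and not in that of ZNF32. On either strand it occurred in the coding part of the last exon of 151 of the 255 genes (59.2%), of 225 of 17494 other genes (1.29%) and of 214 of 249 chromosome 19 ZNF genes (85.9%). In windows of 300 bases centred on summits, 37 of 112 H3K9me3 NC peaks in the last coding exons of the ZNF genes held it (33%), against 4 of their 938 peaks elsewhere (0.426%) and 424 of 69757 peaks outside these genes (0.608%). The linker is coding sequence of the finger exons, so this contrast follows from where the windows lie. Windows in finger exons away from peaks were not counted, so these shares do not link the summits to the linker.

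H3K9me3 was common on these genes in NC. Of the 255 genes, 155 had at least 1 peak (60.8%, Wilson 95% interval 54.7 to 66.6), against 34.4% of the other genes (33.7 to 35.1), 88.4% of the chromosome 19 ZNF genes (83.8 to 91.8) and 34.8% of all genes on chromosomes 1-18 and 20-22. These intervals, like all below, cover counting error only. The peaks covered 6.96% of the summed gene spans, compared with 1.32% for other genes and 23.3% for chromosome 19 ZNF genes. The difference was also seen within length classes up to 100 kb. Among genes under 20 kb, 38 of 92 ZNF genes (41.3%, 31.8 to 51.5) and 10.0% of 7053 others had a peak, and from 20 to 50 kb the shares were 67.0% of 97 and 24.6% of 4145. Above 100 kb the shares were 86.7% of 30 and 83.9% of 3438, with overlapping intervals.

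The position of H3K9me3 within the genes was distinct. The last coding exon, a median of 2582 bp here and 1081 bp in other genes, was at least partly covered in 82 of 255 genes (32.2%, 26.7 to 38.1), against 2.41% of other genes and 2.84% of all genes on these chromosomes. On chromosome 19 the share was 67.1% (61.0 to 72.6). Taken over all bases, 17.2% of the last coding exons lay under NC peaks, 8.29% of the promoters (1 kb either side of the start), 6.04% of the rest of the gene bodies and 10.9% of the downstream flanks. For other genes these shares ran from 0.874% to 1.35%, lowest in the last coding exon. When only the coding part of the last exon was taken, 26% was covered. By number, most of the 1050 NC peaks of the ZNF genes still had their summit in the rest of the body (790 peaks), and 112 had it in the last coding exon, 49 in a promoter, 66 in the downstream and 19 in the upstream flank. The plot of cover around the start of the last coding exon shows the rise, which began before the exon.

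**Figure D1:**
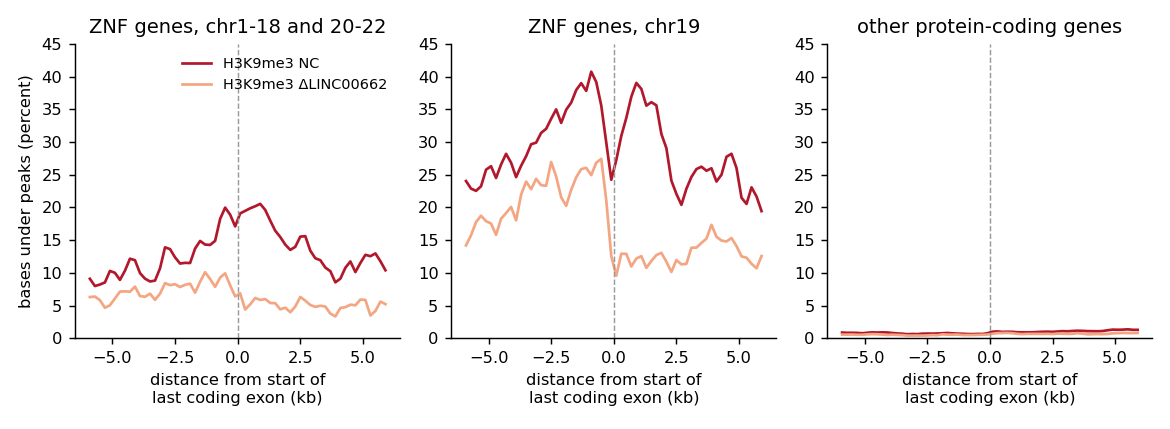
Share of bases under H3K9me3 peaks (percent) in 200 bp bins against the distance from the start of the last coding exon (kb, positive downstream), averaged over the genes of each panel, for NC (dark red line) and ΔLINC00662 (light red line). The bins reach 6000 bp whatever the exon length, so many positive bins lie past the exon end. The median exon was 2582 bp in these ZNF genes and 1081 bp in other genes. In the ZNF genes of chromosomes 1-18 and 20-22 the NC line reached 20.6% at 800 bp past the exon start from 9.1% at 6000 bp before it, whereas the ΔLINC00662 line stood at 5.86% at 800 bp.

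The number of fingers and the KRAB box went with H3K9me3 in the last coding exon. Cover was present there in 37 of the 73 genes with 10 to 14 fingers (50.7%, 39.5 to 61.8) and 16 of the 29 with 15 or more (55.2%, 37.5 to 71.6). The share was 28.2% of 78 genes with 5 to 9 fingers (19.4 to 39.0), 8.62% of 58 with 1 to 4 (3.74 to 18.6) and 11.8% of the 17 with no finger counted (3.29 to 34.3). Of these 17, ZNF718 had 11 fingers in a transcript other than the one used, and for the others none was counted in any coding transcript. Of the 110 genes with a KRAB-A box 50 were covered (45.5%, 36.5 to 54.8), and of the 145 without one 32 (22.1%, 16.1 to 29.5). Taking both features together, 63.8% of the 58 genes with a KRAB-A box and 10 or more fingers were covered, 36.4% of the 44 with that many fingers and no KRAB-A box, 25% of the 52 with a KRAB-A box and fewer fingers, and 15.8% of the 101 with neither. The same order held for the linker, since 65 of 103 genes with 4 or more copies in the last exon were covered (63.1%), 11 of 48 with 1 to 3 (22.9%) and 6 of 104 with no copy (5.77%). Longer exons offer more bases to a peak, and last exon length differed among these classes. Its median was 2886 bp in the KRAB-A genes with 10 or more fingers and 2999.5 bp with that many and no KRAB-A box. It was 2381 bp with a KRAB-A box and fewer fingers and 1825 bp with neither feature. For 1 to 4, 5 to 9, 10 to 14 and 15 or more fingers it was 2234, 1915, 2834 and 3622 bp. In that order 3.05%, 13.1%, 23.5% and 31.6% of the exon bases were covered in NC. The part of exon length was not tested. The plot by finger number shows the shares in both H3K9me3 lists.

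**Figure D2:**
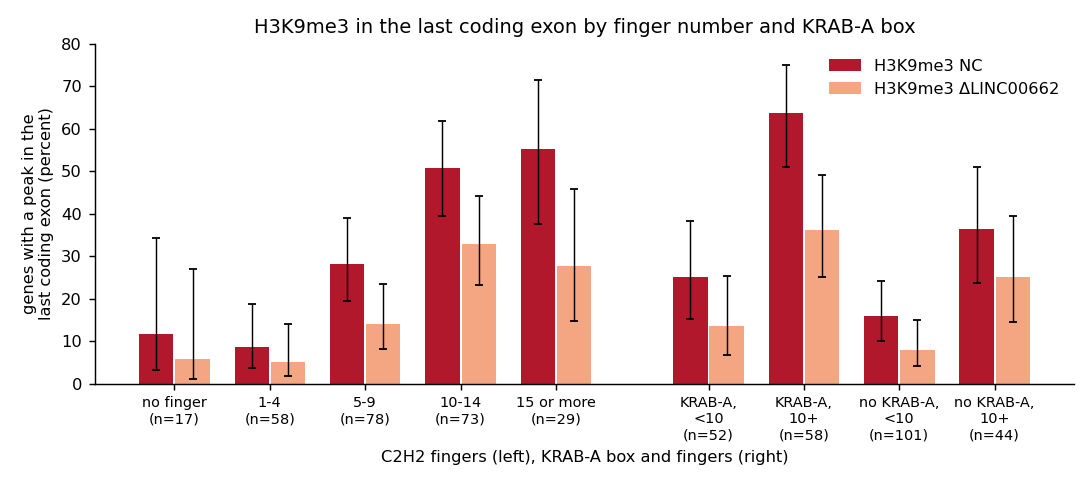
Genes with at least 1 bp of H3K9me3 peak in the last coding exon (percent of genes, bars; error bars are Wilson 95% intervals that cover counting error only) by number of C2H2 fingers and by KRAB-A box, in NC and ΔLINC00662. In NC the share was 8.62% with 1 to 4 fingers and 55.2% with 15 or more, and in every class ΔLINC00662 was below NC.

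In other zinc finger families on the same chromosomes, set against the background of 2.84%, the last coding exon was covered in NC in 7 of 14 ZSCAN genes (26.8 to 73.2%), 3 of 8 ZKSCAN genes (13.7 to 69.4%), 8 of 16 ZFP genes and 12 of 25 genes with a KRAB-A box and no ZNF symbol, in 2 of 15 PRDM genes (3.74 to 37.9%) and in 0 of 38 ZBTB genes (0 to 9.18%), whose interval holds the background. Among 28 ZNF genes with described roles as developmental or transcriptional regulators, such as ZNF423, ZNF521 and ZNF462, 14 had an H3K9me3 peak in NC (background 34.8%) and 0 had cover in the last coding exon (0 to 12.1%, background 2.84%). These family and role lists were chosen with earlier results of these data known. A list of 21 genes for the H3K9me3 machinery also held genes of chromosomes 19 and X, which the backgrounds leave out. Of these 21 genes, 11 had an H3K9me3 peak in NC (background 34.8%), KDM4B on chromosome 19 and ATRX on chromosome X included. In ΔLINC00662 7 of the 21 had one (background 29.5%), and in both lists all lay outside the last coding exon. Among them SETDB1 had 1697 bp covered in NC and 1060 bp in ΔLINC00662, and TRIM28 had none in either.

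By chromosome, the ZNF genes were most numerous on chromosome 7 (35 genes), chromosome 16 (30), chromosome 1 (22) and chromosome 3 (19), and there were none on chromosomes 13 and 21. The share with H3K9me3 in NC was high on chromosome 3 (16 of 19), chromosome 9 (10 of 12), chromosome 4 (7 of 8) and chromosome 10 (14 of 17). It was lower on chromosome 16 (12 of 30), chromosome 18 (3 of 9) and chromosome 22 (1 of 4), and none of the 3 genes on chromosome 14 had a peak. The covered share of the gene spans was highest on chromosome 4 (26.2%), chromosome 12 (22.4%) and chromosome 17 (20%).

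**Figure D3:**
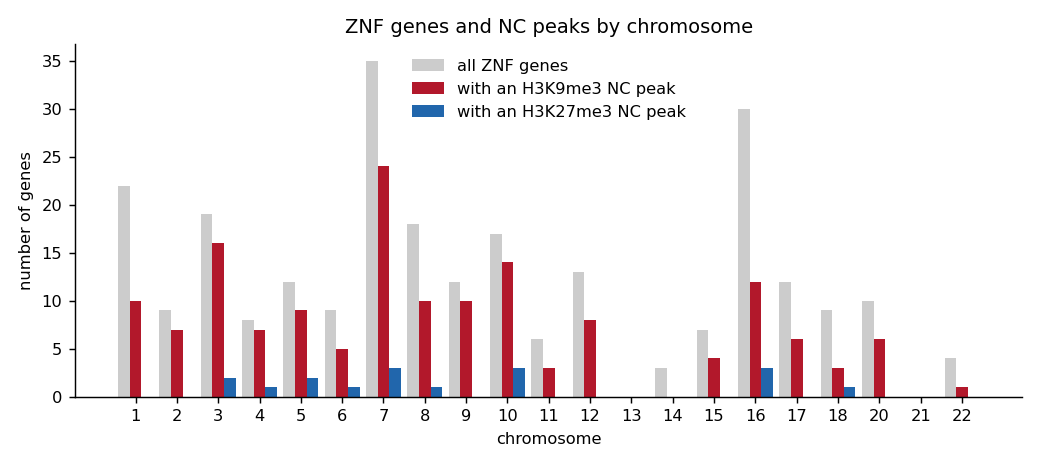
Number of ZNF genes on each chromosome (grey bars), with at least 1 H3K9me3 NC peak (red) and with at least 1 H3K27me3 NC peak (blue). Chromosome 7 held the most genes (35, of which 24 had H3K9me3), and H3K27me3 was found on at most 3 genes of any chromosome.

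Joining members less than 500 kb apart gave 13 clusters of at least 4 genes that together held 89 genes, 61 of them with a KRAB-A box. In NC, 62 of these 89 had H3K9me3 (69.7%) with 18.2% of their spans covered, compared with 93 of the 166 outside clusters (56.0%) with 4.04% covered. The last coding exons differed less, with 21.6% covered in clusters and 14.7% outside. Outside clusters 49 of the 166 genes had a KRAB-A box. Span cover in NC also fell with gene length, from 13.1% in ZNF genes under 20 kb to 2.37% above 100 kb. The parts of the KRAB-A box and of gene length in the contrast between clusters and other genes were not tested. The clusters themselves were very uneven. The cluster of ZNF354A, ZNF354B, ZNF454, ZNF879 and ZNF354C on chromosome 5 (chr5:178138513-178510978) had 54.4% of its gene spans and 57.1% of its last coding exons under peaks, with all 5 genes marked. The subtelomeric cluster from ZNF595 to ZNF721 (chr4:53180-492945) had 44.3% of its spans covered, and the cluster from ZNF605 to ZNF268 (chr12:133494892-133791418) 37.5%, again with every gene marked. The cluster of ZNF205 to ZNF597 (chr16:3162561-3493504) reached 30.3%. At the other extreme, the 10 genes of the cluster from ZNF786 to ZNF862 (chr7:148766733-149564568), 9 of them with a KRAB-A box, had 0.738% covered and no cover in any last coding exon. The 13 genes from ZNF48 to ZNF267 (chr16:30389427-31928678) had 3.87% and the 6 genes around ZNF670 (chr1:247108849-247495169) 3.92%, also with none in the last coding exon. The remaining clusters lay between 5.47% and 19% of the spans.

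Single genes carried long H3K9me3 domains. ZNF678 (chr1:227751244-227865144), a gene of 14 fingers that stands outside the clusters, had 65820 bp under 49 peaks in NC, 55.8% of its span, and 30242 bp under 46 peaks in ΔLINC00662. ZNF721 on chromosome 4 had 49528 bp in NC and 34497 bp in ΔLINC00662, and its neighbour ZNF718 33922 bp and 16119 bp. ZNF717 on chromosome 3, a gene with close copies whose reads may be shared among them, had 24421 bp and 17285 bp. These 4 genes kept a broad domain in both lists, at between 0.459 and 0.708 times its NC extent. ZNF268 had 21897 bp in NC and 12699 bp in ΔLINC00662, ZNF892 20798 bp and 9953 bp, and ZNF141 18884 bp and 16493 bp. ZNF286A on chromosome 17 had 18366 bp and 12183 bp, and its readthrough entry ZNF286A-TBC1D26, which covers the same bases and more, 22929 bp and 15500 bp. The strongest peak of ZNF286A had 94 fragments at its summit in NC (Poisson 95% interval 76.0 to 115), 9.98-fold over the local background, and is the peak that the sequence above was taken from. ZNF454 had 17909 bp and 10829 bp. ZNF10, the source of the KRAB domain widely used as a synthetic repressor, had 15594 bp in NC and 7795 bp in ΔLINC00662 while its last coding exon of 1466 bp held none in either list.

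In 12 genes the last coding exon lay wholly under NC peaks. Of these, ZNF174 (an exon of 653 bp) was wholly covered in ΔLINC00662 too, whereas ZNF595 (291 bp) and ZNF75A had no cover left there. The covered share in ΔLINC00662 was 86.9% in ZNF16, 80.6% in ZNF32, 70.3% in ZNF286A and 65.4% in ZNF436. It was lower in ZNF7 (40.2%), ZNF514 (38.3%), ZNF454 (32.7%) and ZNF879 (17.7%), and the readthrough entry ZNF286A-TBC1D26 had 75.4%. Since these exons were picked for complete cover in NC, they could not rise in the other list.

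The comparison of ΔLINC00662 with NC asks whether H3K9me3 on the ZNF genes depended on this RNA. Over whole gene spans these genes did as other genes did. Peaks covered 995.9 kb of them in NC and 542.5 kb in ΔLINC00662, a ratio of 0.545, against 0.567 for other genes and 0.641 for chromosome 19 ZNF genes. Of the 148 genes with at least 500 bp in either list, 72 (48.6%, 40.7 to 56.6) had at most 0.5 times the NC cover, at a background of 48.3% over all 5353 genes compared, and 5 (3.38%) had at least 2 times, at a background of 5.77%. The median ratio was 0.51 for the ZNF genes and 0.50 for other genes. The number of genes with a peak went from 155 to 140 (54.9%, 48.8 to 60.9, at a background of 29.5%). The ΔLINC00662 list was also shorter as a whole, with 60273 peaks against 84170 in NC, and the recovered genome-wide fragment level was 3.5 against 4.29, and what part the depth had in the ratio was not tested.

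In the last coding exons the fall was deeper than in the rest of the same genes. Their cover went from 17.2% in NC to 6% in ΔLINC00662, a ratio of 0.349, while in other genes it went from 0.874% to 0.577%, and in chromosome 19 ZNF genes from 29.8% to 11.7%. Counted by gene, 72 ZNF genes had at least 500 bp of the exon covered in either list. In 53 of these (73.6%) ΔLINC00662 had at most 0.5 times NC, at a background of 46.5% over the 329 genes compared. None was left in 27 of the 72, and in 84 of the 329. In 2 (2.78%) ΔLINC00662 had at least 2 times NC, at a background of 11.6%. In these 72 genes the exon cover went from 136 kb to 48.0 kb (ratio 0.352) and the cover of the rest of the span from 584 kb to 347 kb (ratio 0.594). Most of these genes passed the 500 bp minimum through NC, and over all 255 genes with no such minimum the ratio was 0.349 in the last coding exon and 0.575 in the rest of the body. In the 257 other genes with at least 500 bp the ratios were 0.689 in the exon and 0.661 in the rest, and in the 149 chromosome 19 ZNF genes 0.392 and 0.638, with 102 of these lower (68.5%). The count of ZNF genes with any cover in the last coding exon was 82 in NC and 47 in ΔLINC00662 (18.4%, 14.2 to 23.6, at a background of 2.25%). The lower cover came with fewer and narrower peaks: among 36 NC peaks of these exons with a single partner in ΔLINC00662, the median log2 ratio of width was -0.97 and that of fold enrichment was -0.34, against -0.28 and 0.03 in 22735 pairs outside the ZNF genes.

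**Figure D4:**
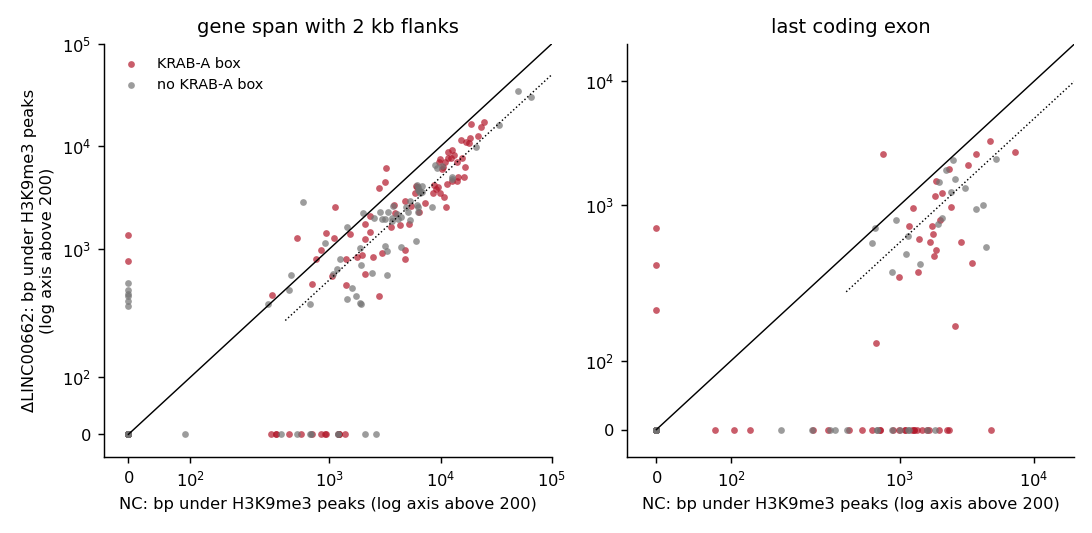
Base pairs under H3K9me3 peaks in ΔLINC00662 (y axis) against NC (x axis) for each of the 255 ZNF genes, over the gene span with flanks (left) and in the last coding exon (right), on axes that are logarithmic above 200 bp, with genes that have a KRAB-A box in red and the others in grey. The solid line marks equal cover and the dotted line 0.5 times NC, and on the right 53 of the 72 genes with at least 500 bp lie on or below the dotted line.

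Peak strength and base composition moved with the loss. Of the 1050 NC peaks of the ZNF genes, 577 overlapped a ΔLINC00662 peak (55.0%, 51.9 to 57.9), against 36.5% of 69757 other peaks. The ZNF peaks were wider, with a median of 622.5 bp against 471 bp for other peaks. A wider peak offers more bases to an overlap of 1 bp, and the part of width in retention was not tested. Retention rose with strength, from 32.1% of 56 peaks at the lowest −log10 q (1.3 to 2) to 85.8% of 218 peaks at 10 or more, and was above that of other peaks in each of 5 strength classes. For peaks in the last coding exon 48 of 112 were retained (42.9%, 34.1 to 52.1), and for the other 938 peaks of these genes 56.4% (53.2 to 59.5). The difference was not seen at −log10 q of 10 or more, with 23 of 26 exon peaks (88.5%) and 164 of 192 others (85.4%). From 5 to 10 the shares were 38.3% of 47 and 61.0% of 331, and from 3 to 5 8.70% of 23 and 39.6% of 270. From 2 to 3 they were 30% of 10 and 42.1% of 95, and below that 33.3% of 6 and 32% of 50. The exon peaks had a median GC content of 42.3%, the other NC peaks of these genes 47.1%. At 38 to 42% GC, 14 of 43 exon peaks (32.6%, 20.5 to 47.5) and 51 of 98 other peaks of these genes (52.0%, 42.3 to 61.7) were retained, and at 46% or more 21 of 35 (60%) and 318 of 553 (57.5%). By GC of the exon, the ratio of cover was 0.274 in the 108 ZNF genes under 40%, 0.478 in the 33 from 40 to 44%, 0.369 in the 27 from 44 to 48% and 0.706 in the 87 above. The corresponding values for other genes were 0.497, 0.532, 0.632 and 0.871, higher in each class. The part of base composition in the deeper fall was not tested beyond these classes, nor was that of reads that fit several ZNF paralogues, for which no mapping quality filter is stated.

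The fall was seen on most chromosomes. The ratio of covered spans lay between 0.303 on chromosome 20 and 0.670 on chromosome 7 on all chromosomes but 14, which had no cover in NC, and 22, where 1188 bp in NC and none in ΔLINC00662 were covered. For the last coding exon the ratio was 0.105 on chromosome 3, 0.168 on chromosome 16, 0.203 on chromosome 5 and 0.205 on chromosome 9, 0.544 on chromosome 7 and 0.561 on chromosome 8. Among the clusters, the chromosome 5 cluster went from 57.1% to 11.1% of its last coding exons and the cluster of ZNF248 on chromosome 10 from 30% to 3.02%. The neighbouring cluster of ZNF487 on the same chromosome stood at 30.5% and 31.2%, and the cluster of ZNF722 on chromosome 7 at 9.46% and 11%.

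The 4 genes with the most lost base pairs were ZNF678, ZNF718, ZNF721 and ZNF891, the last with 16160 bp in NC and 4982 bp in ΔLINC00662. Just inside the limit of 0.5 times NC was ZNF10 and just outside it ZNF107, with 13931 bp and 7063 bp. The 4 genes with the largest gain were ZNF727 (3243 bp in NC, 6138 bp in ΔLINC00662), ZNF512 (4.98 times its NC cover, with 2897 bp in ΔLINC00662), ZNF138 (1129 bp and 2538 bp) and ZNF722 (0 bp and 1354 bp). Of these, 3 lie in the one cluster at chr7:63459227-64866049, whose genes had 69.9 kb covered in NC and 51.2 kb in ΔLINC00662. In ZNF727 the covered part of the last coding exon was 9.38% in NC and 32.0% in ΔLINC00662.

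H3K27me3 was rare on the ZNF genes. In NC 17 of 255 had a peak (6.67%, 4.20 to 10.4), against 13.1% of other genes (12.6 to 13.7) and a background of 13.0% over all genes, and in the chromosome 19 ZNF genes 22 of 249 did (8.84%, 5.91 to 13.0). By length, 0 of 92 ZNF genes under 20 kb had a peak in NC (0 to 4.01%), against 10.7% of others. The shares were 6.19% (2.87 to 12.8) and 8.4% from 20 to 50 kb, and 8.33% (2.87 to 21.8) and 11.3% from 50 to 100 kb. Above 100 kb they were 26.7% (14.2 to 44.4) and 25.3%. From 20 kb upward each interval held the share of the other genes. The covered share of the spans was 0.546% in the ZNF genes and 1.5% in the others. In ΔLINC00641 15 genes had a peak (5.88%, 3.6 to 9.48, background 13.2%) and in ΔSETD5-AS1 14 (5.49%, 3.3 to 9, background 13.4%). Of the 146 NC peaks 109 lay on the single gene ZNF385D. The last coding exon was touched in 1 gene in NC, and promoters in 6, 8 and 4 genes of the NC, ΔLINC00641 and ΔSETD5-AS1 lists. Among other genes the promoter was the most covered position, at 3% in NC against 0.562% here.

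Promoter H3K27me3 was present in all 3 lists at ZNF804B, ZNF469 and ZNF385D. Ranked by the lowest value over the lists ZNF804B came first, with 1420 bp of its promoter covered in NC, 1659 bp in ΔLINC00641 and 1343 bp in ΔSETD5-AS1, and ZNF469 next, with 445 bp, 838 bp and 673 bp. For ZNF804B the 200 bases before the annotated start, at chr7:88388814-88389013 on the plus strand, are shown from GRCh37 with each CG in capitals.
ZNF804B: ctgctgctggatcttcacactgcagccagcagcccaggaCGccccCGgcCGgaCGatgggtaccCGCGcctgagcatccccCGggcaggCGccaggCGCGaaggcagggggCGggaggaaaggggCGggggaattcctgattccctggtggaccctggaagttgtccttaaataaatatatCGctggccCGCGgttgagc
This window had 15 CG and lay wholly under a peak in each list. The median over all 255 ZNF genes was 14 CG and over other genes 12, and the ZNF804B window lay within the interquartile range of the ZNF genes (8 to 19).

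ZNF385D, a gene of 4 fingers spanning 961103 bp on chromosome 3 (chr3:21453710-22414812), held most of the H3K27me3 of these genes, with 54629 bp in NC, 32232 bp in ΔLINC00641 and 49917 bp in ΔSETD5-AS1. ZNF469, a gene mutated in brittle cornea syndrome, had 6212 bp, 9155 bp and 6905 bp in the same order, and ZNF804B 3731 bp, 2276 bp and 2341 bp. The readthrough entry ZNF511-PRAP1 had 3913 bp, 3561 bp and 3288 bp, none of them in its promoter. It is counted among the 17 genes with H3K27me3 in NC. The 3 genes of chromosome 10 with an H3K27me3 peak in NC were ZNF365, ZNF518A and this entry, so ZNF511 itself had none. ZNF521, a cofactor in haematopoietic and neural progenitors, had 1345 bp in NC and none in either knockdown, and its paralogue ZNF423 803 bp, 290 bp and none. ZNF717 had 1770 bp, 282 bp and 399 bp. The plot of the 24 genes with any H3K27me3 shows that 4 entries, the readthrough entry among them, stood above the rest, and in NC the next was ZNF717.

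**Figure D5:**
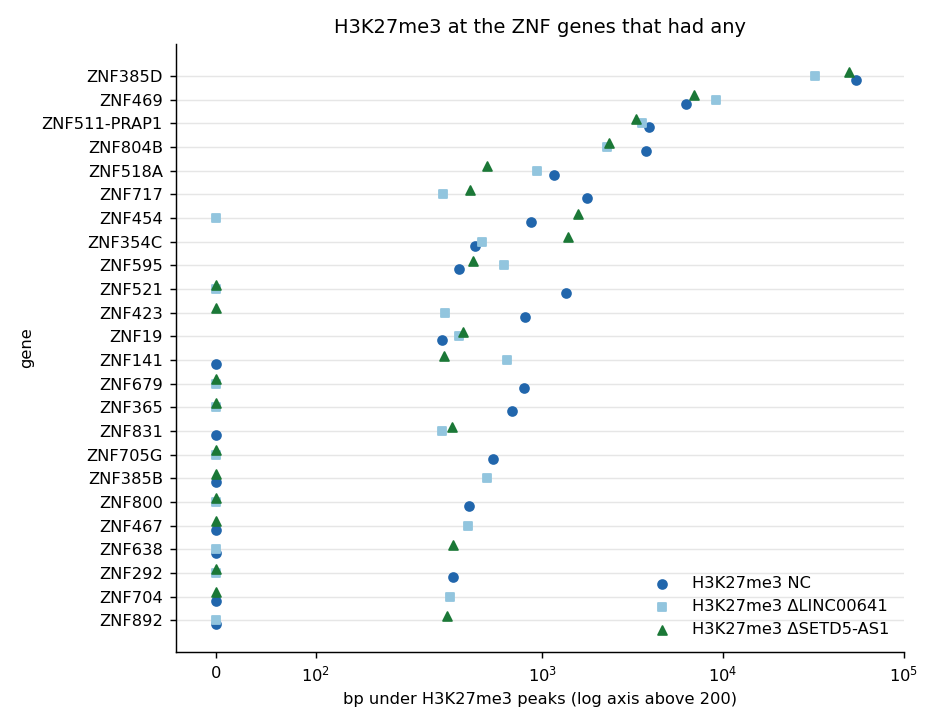
Base pairs under H3K27me3 peaks (x axis, logarithmic above 200 bp) at the 24 ZNF genes with a peak in at least 1 of the 3 lists, 1 row per gene and 1 symbol per list. ZNF385D is highest in every list, at 54629 bp in NC, and 7 of the 24 genes had no peak in NC.

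In both H3K27me3 comparisons few ZNF genes could be compared, and both share the NC list. With at least 500 bp in either list, 14 genes were compared for ΔLINC00641. Of these 7 had at most 0.5 times NC (background 18.3% over 2120 genes) and 1 had at least 2 times (background 13.8%). For ΔSETD5-AS1 13 genes were compared, with 7 lower (background 16.3% over 2109 genes) and 1 higher (background 14.6%). The total cover ratio was 0.668 in ΔLINC00641, against 0.821 for other genes, and 0.874 in ΔSETD5-AS1, against 0.883. ZNF385D made up most of these totals, and without it the ratio was 0.85 for ΔLINC00641 and 0.781 for ΔSETD5-AS1. The lower genes had 1 to 4 small peaks each in NC, and 5 of the 7 had none left in ΔLINC00641, as had 5 of the 7 in ΔSETD5-AS1. Over all genes compared, 158 of the 388 lower genes had none left in ΔLINC00641 and 148 of the 343 in ΔSETD5-AS1. The gene that was higher was ZNF141 in ΔLINC00641, with no peak in NC and 635 bp in the knockdown, and ZNF354C in ΔSETD5-AS1, with 422 bp and 1389 bp. Just inside the lower limit were ZNF423 in ΔLINC00641 and ZNF518A in ΔSETD5-AS1 (1159 bp and 492 bp), and just outside ZNF385D and ZNF804B. Of the 146 NC peaks 49 were found again in ΔLINC00641 (33.6%, 26.4 to 41.6) and 56 in ΔSETD5-AS1 (38.4%, 30.9 to 46.4), against 51.4% and 54.8% of other peaks. Without the 109 peaks of ZNF385D, 15 of 37 (40.5%, 26.3 to 56.5) and 14 of 37 (37.8%, 24.1 to 53.9) were found again. The median −log10 q was 3.21 for the ZNF peaks and 3.72 for other peaks, and the median width was 406.5 bp and 515 bp. The part of width was not tested. Within each class of −log10 q from 1.3 to 10 the ZNF share was the lower one in both comparisons, for example 29.3% against 48.7% from 3 to 5 in ΔLINC00641 and 32.8% against 52.5% in ΔSETD5-AS1. These classes hold all 146 peaks, 109 of them on ZNF385D, and were not recomputed without that gene. They therefore describe mostly that 1 gene rather than the ZNF genes in general.

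Both marks occurred together on 15 of the 17 ZNF genes with H3K27me3 in NC (88.2% of these and 9.68% of the 155 with H3K9me3), where 60.8% of all ZNF genes had H3K9me3. Among other genes 58.0% of those with H3K27me3 also had H3K9me3, where 34.4% of all of them did. Of the 17 ZNF genes with H3K27me3, 8 were above 100 kb, a length class in which 86.7% of ZNF genes had H3K9me3. With at least 500 bp of each mark there were 10 of the 255 ZNF genes, the readthrough entry ZNF511-PRAP1 among them, and 923 of the 17494 other genes. By the smaller of the marks ZNF385D led with 54629 bp of H3K27me3 and 6492 bp of H3K9me3, followed by ZNF804B with 3731 bp and 3276 bp and ZNF717 with 1770 bp and 24421 bp. ZNF454, in the H3K9me3-rich chromosome 5 cluster, had 859 bp of H3K27me3 in NC, none in ΔLINC00641 and 1575 bp in ΔSETD5-AS1. The lists do not say whether the marks lay on the same chromosomes, since each is a sum over many cells.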

How the data were processed

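ChIP and input libraries from HEK293T cells were taken in 10 groups of 3 replicates. Per the study's methods and the submitters' processing notes, adapters were removed by the authors (Cutadapt 3.3), alignment to hg19 was by Bowtie2 2.4.2, duplicates were dropped, the replicates were merged and peaks were called with MACS2 2.2.7.1 against the input of the same group, giving 5 deposited lists. For each peak the authors' lists give a fold enrichment, a −log10 p-value and q-value at the summit and a score (10 times −log10 q). Read totals per library are not in the lists. Fragments at summits were recovered from the deposited fold enrichment and −log10 p.

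Genes came from GENCODE 44 on GRCh37. The last coding exon is that of the transcript with the longest coding sequence, from which C2H2 fingers and KRAB-A boxes were counted after translation. Covered base pairs, shares and retention (1 bp of overlap) were computed in Python 3.11.15 (pandas 2.3.3, pysam 0.24.0, scipy 1.17.1, numpy 2.4.6), and the code was tested on simulated data. Lower and higher mean at most 0.5 and at least 2 times NC, with at least 500 bp in either list. Intervals are Wilson (shares) and exact Poisson (fragments). No test was made, since each group is 1 pooled list. The members and lists were chosen with earlier results of these data known. Genes were named as the 10 with most cover of each mark or of the last coding exon, the 4 largest falls and rises, up to 8 with both marks, clusters, a role list and threshold neighbours. The exon sequences are from those of the 10 top last exons with a summit and enough coding bases. Alternatives varied the peak threshold, list size, flank, overlap and minimum cover. A further promoter sequence is not reported here.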

Additional observations from a re-analysis of the deposited data

How the results depend on the processing

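No paired analysis was possible because each group is 1 peak list called on its merged replicates, and for the same reason leaving out replicates was not run. Of 158 recomputed values 124 moved little, and no ratio crossed 1. Shares and retention were held to the Wilson interval of the main value, and covers, counts and ratios to a fixed fold limit. The H3K27me3 ratio over gene spans ranged from 0.633 to 0.85 for ΔLINC00641 and from 0.781 to 0.953 for ΔSETD5-AS1. With equal numbers of the strongest peaks it was 0.832 and 0.953. The ΔLINC00662 ratio ranged from 0.454 to 0.598 over gene spans and from 0.258 to 0.395 in the last coding exon. With −log10 q of at least 5, the share of ZNF genes with a peak was 2.75% for H3K27me3 NC, 2.35% for ΔLINC00641, 1.57% for ΔSETD5-AS1, 50.6% for H3K9me3 NC and 41.2% for ΔLINC00662. Span cover was then 0.158% for H3K27me3 NC, 0.139% for ΔSETD5-AS1, 0.126% for ΔLINC00641 and 2.3% for ΔLINC00662, whose last-exon cover was 3.71%. At that threshold 1 gene was lower and 0 higher in each of ΔLINC00641 and ΔSETD5-AS1, and retention was 29.6% for ΔSETD5-AS1 and 45.1% for ΔLINC00662. With equal numbers of the strongest peaks, 2 genes were higher in ΔLINC00641 and 8 in ΔLINC00662, 4 were lower in ΔSETD5-AS1, and retention in ΔLINC00662 was 58%. Without flanks 3 genes were higher in ΔLINC00662. Without genes that overlap another, 4 were lower in ΔSETD5-AS1 and 43 in ΔLINC00662. With a 1000 bp minimum 2 were lower and 0 higher in ΔLINC00641, and 3 lower in ΔSETD5-AS1. Requiring 50% overlap gave retention of 37.8% in ΔLINC00662, 26.7% in ΔSETD5-AS1 and 23.3% in ΔLINC00641, and merging peaks under 1 kb apart gave 62% for ΔLINC00662. NC peaks of −log10 q of at least 5 were found in the whole other list at 68.3% for ΔLINC00662 and at 70.4% for both H3K27me3 knockdowns. In the coding part of the last exon alone NC cover was 26%. The cause of these shifts was not tested. The H3K27me3 counts rest on 14 and 13 genes. Leaving out ZNF385D was chosen after seeing the data.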
